A study of Drosophila melanogaster with 12 samples.

Results

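The sex difference was examined within the monogamy populations of an experimental evolution study of Drosophila melanogaster, using the 6 arrays whose titles give monogamy as the regime, of 12 in the series. They form 2 groups of 3, virgin males and virgin females, with 1 whole-fly sample of each sex from each of 3 populations. Every fly was 4 days old and of the genetic background called IV in the labels, and every population had been held for 65 generations under monogamy. The other 6 arrays come from 3 populations held for the same time under polygamy and are used only to set the sex difference beside theirs. How many flies made up a sample is not given in the sources used here. Each value is a log2 expression value of 1 transcript on 1 single-colour array, and 16637 transcripts were measured.

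Sex-biased expression means that a transcript is more abundant in the whole body of one sex. In adult flies much of it is known to come from the reproductive organs: the testis transcribes many genes that are used nowhere else, accessory glands make seminal fluid proteins, and the ovary fills the egg with products of genes that other tissues use as well. A whole fly is a mixture of tissues, so more cells of a type and more RNA per cell cannot be told apart in these values. Under monogamy males do not compete with rivals to mate or to fertilise eggs, and the comparison asks what the sex difference looks like in populations kept that way.

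The RefSeq gene table of assembly Release 6 gave a gene symbol to 44 of the identifiers, 16 of them naming 1 gene and 28 naming several. None of the 126 genes on 7 lists of sex and tissue markers (sex determination, yolk and eggshell, oogenesis, spermatogenesis, seminal fluid, housekeeping, and other tissues of the fly) was among them, so the number measured under a name was 0 and the sex labels could not be set against marker genes. The labels were borne out only in that the arrays grouped by sex. Males correlated at 0.901 to 0.969 with each other over all transcripts, females at 0.978 to 0.991, and males with females at 0.612 to 0.763.

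Males and females differed in a large part of the transcriptome. Of all transcripts, 6844 passed the thresholds used throughout, which were an adjusted p under 0.05 (limma, Benjamini-Hochberg) and a size of 1 or more on the log2 scale, that is, 2-fold or more. This is 41.1% of transcripts. Those higher in males, called male-biased here, numbered 2469 (14.8%), and those higher in females, called female-biased, numbered 4375 (26.3%). The adjusted p alone was passed by 8682 transcripts, with males the higher sex in 3038 and females in 5644, so 1838 passed it with a difference below the required size. A further 633 transcripts differed by at least 1 without passing the adjusted p. The median of the standard errors was 0.27.

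The count lay between 5866 and 7780 when any single array was left out. It depended most on population 2: without both of its arrays the count was 2793, with 1724 male-biased and 1069 female-biased, against 7540 without population 1 and 5881 without population 3. Males 1 and 3, which then remained, were the least alike of the males (r = 0.901). Against the required size itself, with limma's treat, 3276 passed, 1878 higher in males and 1398 in females, so that the majority turned to males.

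Direction was the same in each population. Of the male-biased transcripts 2468 of 2469 were higher in the male of all 3 populations, and of the female-biased 4374 of 4375 were lower in it. A difference of at least 1 in every population was found for 87.7% of the male-biased and 68.9% of the female-biased transcripts. Over all transcripts, the 3 male values lay wholly above the 3 female values for 22.1% and wholly below them for 41.2%. All of these counts come from the comparison that made the calls and describe them.

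Male bias and female bias differed in size. A male-biased transcript had a median log2 difference of 4.33, or 20.1-fold, with quartiles of 2.37 and 5.92. A female-biased transcript had a median of -1.65, or 3.14-fold, with quartiles of 1.30 and 2.17 in absolute size. Female-biased transcripts were thus more numerous, and male-biased ones were larger in their differences. The transcripts that did not pass had a median absolute difference of 0.47.

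The balance turned as the required size was raised. Among differences of 2 or more, 4-fold, 1954 transcripts were male-biased and 1373 female-biased, so males held 58.7% of them, against 36.1% among differences of 1 or more. At 3 the numbers were 1657 and 412, at 4 they were 1361 and 169, and at 5 they were 1001 and 66. At 6, which is 64-fold, 583 were higher in males and 16 in females, and males held 97.3%. The number of female-biased transcripts at 4 depended on single arrays: it was 257 without male 1 and 103 without male 2, beside 1425 and 1339 male-biased ones.

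**Figure D1:**
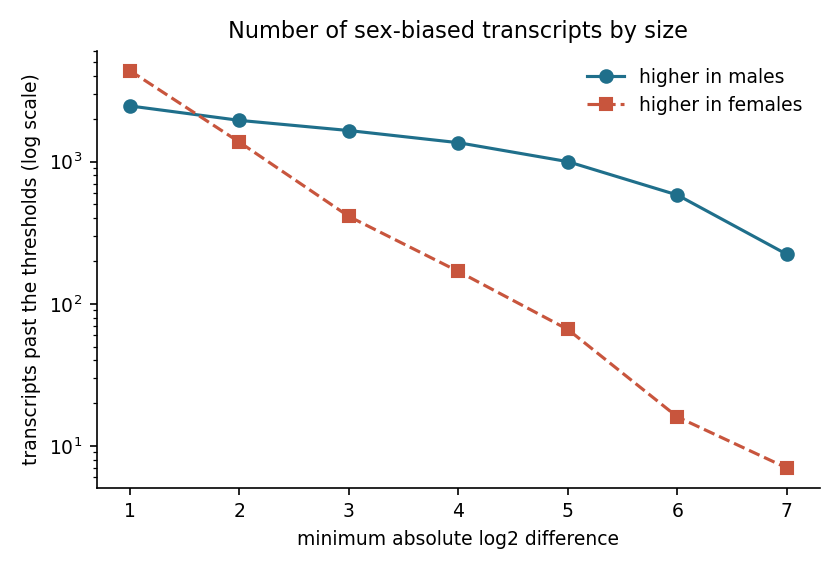
Number of transcripts past the thresholds (vertical axis, log scale) by the minimum absolute log2 difference (horizontal axis), for transcripts higher in males (circles) and in females (squares), 3 arrays of each sex. The male line starts below the female line, at 2469 against 4375, and lies above it from a difference of 2 onwards.

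The sizes of the male-biased transcripts had a hump at 4 to 7. The counts start at the required size of 1, so the first step is the edge of the smaller differences and not a hump. The adjusted p alone was passed by 3038 transcripts higher in males, against 2469 with the required size. Sorted into steps of 1 on the log2 scale, 515 differed by 1 to 2, then 297 and 296 in the next steps, and the number was larger again at 4 to 5 (360) and at 5 to 6 (418), with 360 at 6 to 7 and 223 beyond. The trough between 2 and 4 and the hump above it were present in all 6 sets of 5 arrays. When every value under its array's 5th percentile was set to that percentile, the step from 5 to 6 held 424. Without male 1 the top of the hump lay at 6 to 7, with 418. Female-biased transcripts had no such hump: 3002 differed by 1 to 2, 961 by 2 to 3, 243 by 3 to 4, 103 by 4 to 5 and 50 by 5 to 6.

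Over all transcripts the distribution of the difference was skewed to the male side. Its median was -0.34, and 10312 transcripts had a negative and 6325 a positive difference, whatever their p. The 5th percentile was -2.40 and the 95th 5.44, and the 1st and 99th were -4.01 and 7.17. The lower quartile was -1.13 and the upper 0.46, so the bulk leaned towards females while the longer tail was male. The median of the arrays themselves was 10.15 ± 0.03 over the 3 males and 10.15 ± 0.04 over the 3 females (SD). The values were normalized with RMA before deposit, which can make array medians alike, so their likeness is not a result about the sexes. The lean of the bulk is relative to that scale, and the part of normalization in it was not tested.

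The extreme transcripts carry no gene name. FBtr0073671 stood at 11.61, 12.80 and 13.61 in males 1 to 3, against 3.60, 3.56 and 3.66 in females 1 to 3, a difference of 9.07 (SE 0.48, limma adjusted p = 1.84e-05). FBtr0077757 stood at 12.00, 12.30 and 12.24 in males, against 3.33, 3.46 and 3.33 in females, a difference of 8.81 (SE 0.18, limma adjusted p = 4.38e-06). In both, each female value was under its array's 5th percentile, near the low end of the scale, so their fold is uncertain.

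On the female side, FBtr0076573 stood at 6.28, 5.01 and 5.08 in males, against 13.43, 13.77 and 13.61 in females, a difference of -8.15 (SE 0.37, limma adjusted p = 9.63e-06). FBtr0081241 stood at 4.74, 4.94 and 5.06 in males, against 11.60, 12.72 and 12.70 in females, a difference of -7.42 (SE 0.34, limma adjusted p = 9.92e-06). No array of either sex had a value of these 2 below its 5th percentile, and male 1 held the highest male value of FBtr0076573.

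The level at which a transcript was expressed differed between the classes. Male-biased transcripts had a median level of 11.24 in males and 6.06 in females, and female-biased transcripts a median of 8.28 in males and 10.56 in females. Transcripts in neither class stood at 10.60 in males and 10.70 in females. Between their quartiles the male-biased transcripts spanned 9.82 to 12.20 in males and 4.95 to 7.87 in females. The female-biased spanned 5.89 to 10.03 in males and 7.81 to 11.84 in females.

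**Figure D2:**
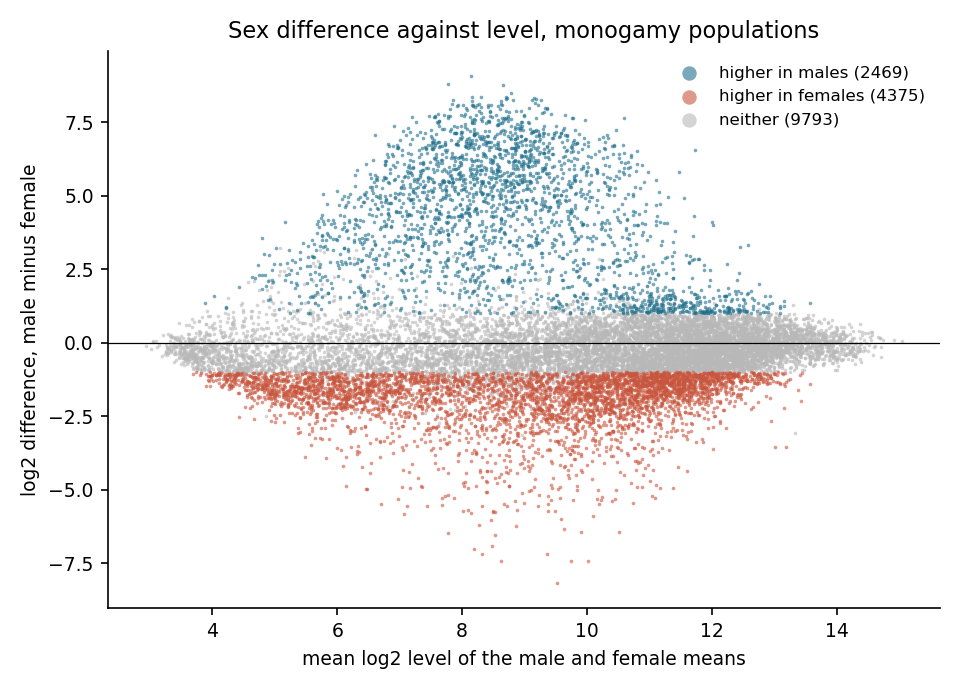
Log2 difference, male minus female (vertical axis), against the mean of the male and female log2 levels (horizontal axis), 1 point per transcript, coloured by class. The 2469 male-biased points form a cloud reaching beyond 7 at middle levels, and the 4375 female-biased points lie mostly between -1 and -3 at all but the highest levels.

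The other sex's level separated the classes further. Of the male-biased transcripts, 26.2% averaged under 5 in females, 49.7% stood between 5 and 8, and 24.1% (596) at 8 or above. Of the female-biased, 14.9% averaged under 5 in males, 31.6% stood between 5 and 8, and 53.6% (2343) at 8 or above. The 596 male-biased transcripts that were well expressed in females had a median difference of 1.54, and the rest of that class 5.15; the female level that made this split is a term of the difference. For the female-biased the same medians were -1.57 with a male level of 8 or above and -1.73 below it.

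Some transcripts were near the low end in one sex and well expressed in the other. There were 285 with all 3 males at 8 or above and all 3 females under 5, with median levels of 10.74 in males and 4.28 in females, and all of them were male-biased (11.5% of that class). The reverse, all 3 males under 5 and all 3 females at 8 or above, was found for 11 transcripts, with median levels of 4.32 in males and 9.44 in females, all female-biased (0.251% of that class). The levels of 5 and 8 were set for this description, and no detection calls were used. They were applied to the values that give the difference, so the direction of each set was fixed and its calls largely follow.

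Transcripts were next placed in 10 equal bins by their mean level over the sexes, which uses the same values as the difference and is a description. The share past the thresholds was 36.6% in the lowest bin, 59.1% in bin 3, 42.4% in bin 7 and 7.09% in the highest. Males held 11.8% of the sex-biased transcripts in the lowest bin, 58.2% in bin 3, 56.4% in bin 4, 33.6% and 40.6% in bins 2 and 5, and 20.7% to 28.0% in bins 6 to 10. Male bias was thus the more frequent kind only in bins 3 and 4, at mean levels of 7.11 to 9.09. The standard error also varied with level, from a median of 0.35 in bin 3 to 0.19 in the highest.

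A mean over the sexes places a transcript of one sex midway, so the bins were also made by the level in the higher sex. Then 1048 of the 2469 male-biased transcripts (42.4%) lay in the lower 5 bins, against 1851 by the mean over the sexes. Of the female-biased, 55.9% lay there by the higher sex and 57.4% by the mean. The number of male-biased transcripts was 30 in the lowest bin and 148 in the next, and then between 222 and 316 in the other bins. That of female-biased transcripts was 448 and 685 in the lowest bins, between 375 and 470 in bins 3 to 9, and 208 in the highest. In the highest bin, at levels of 12.96 and above, 222 were male-biased and 208 female-biased.

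The size of male bias differed between the bins in a way that depends on how they are made, since each sex's level is a term of the difference. From the lowest to the highest bin by level in the higher sex, the median difference of male-biased transcripts was 1.71, 2.46, 3.41, 4.11, 4.91, 4.99, 5.15, 5.34, 5.52 and 5.56. By the mean over the sexes it was 2.26 in the lowest bin, 5.54 in bin 4 and 1.28 in the highest, and by the level in the lower sex it was 5.70 in the lowest and 1.19 in the highest. The median difference of female-biased transcripts lay between -1.39 and -1.89 by the higher sex, between -1.24 and -2.05 by the mean and between -1.16 and -2.04 by the lower sex. The low end of the scale bounds how far a dim transcript can differ, and the 5th percentile of the arrays stood at 4.18 ± 0.05 over the 3 males and 4.38 ± 0.04 over the 3 females (SD).

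**Figure D3:**
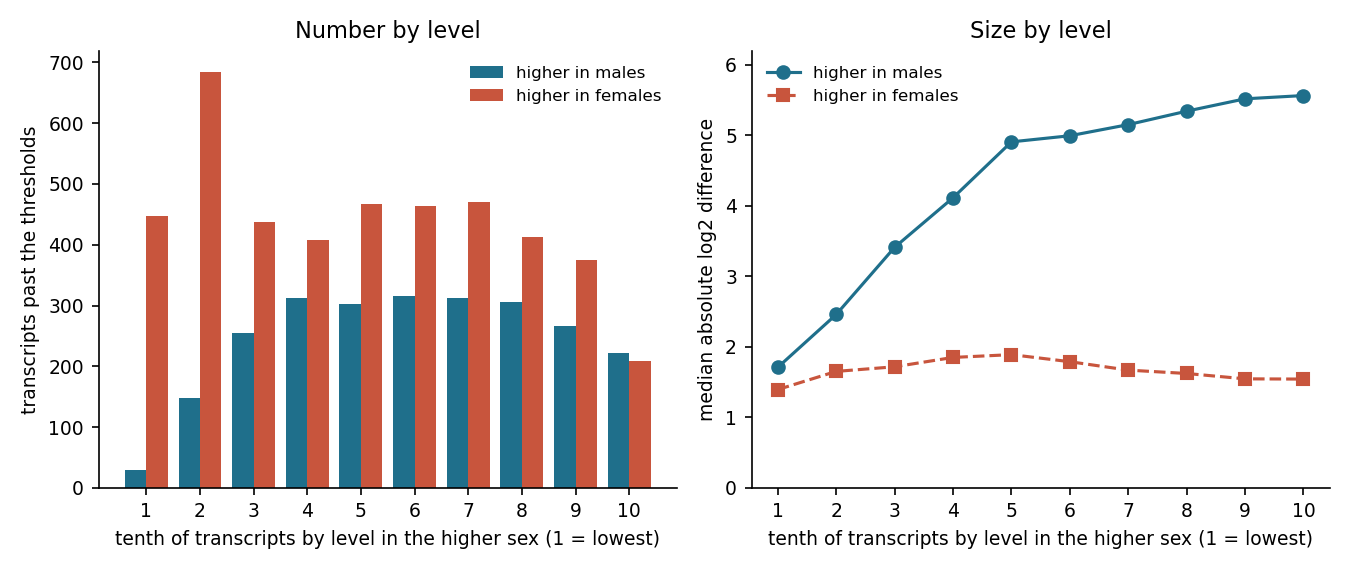
Left, number of transcripts past the thresholds in each of 10 equal bins of transcripts by level in the higher sex, male-biased bars left of female-biased bars. Right, median absolute log2 difference of the same transcripts, from 1.71 to 5.56 for the male-biased (circles) and lower in each bin for the female-biased (squares). The male level is itself a term of the difference, and in bins by the lower sex the male-biased median is 5.70 in the lowest and 1.19 in the highest.

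Few male-biased transcripts were dim in males, while the female-biased were dim in females nearly as often as all transcripts. In males 194 male-biased transcripts (7.86%) had a mean under 8, beside 27.7% of all transcripts. In females 1167 female-biased transcripts (26.7%) did, beside 31.6% of all. These shares are a description, since each sex's level is a term of the difference that makes the call. Counted by steps of 1 in female level, the female-biased numbered 442 at 7 to 8, 327 at 8 to 9 and 904 at 11 to 12, and all transcripts showed a dip at the same place, with 1305, 1222 and 2772. The dim female-biased transcripts differed by a median of -1.54 and the others by -1.71. In male level, 631 male-biased transcripts stood at 11 to 12, the most in any step.

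The arrays' own distributions differed by sex, most in the low range. The 5th percentile was 4.23, 4.16 and 4.14 in males 1 to 3, against 4.37, 4.34 and 4.43 in females 1 to 3, and the sexes did not overlap (difference -0.20). The 25th percentile was 7.42, 7.60 and 7.68 in males, against 7.17, 7.15 and 7.08 in females (difference 0.44), and again did not overlap. The 75th percentile did not overlap either, at 11.79, 11.77 and 11.73 in males against 11.85, 11.83 and 11.86 in females (difference -0.08). None of these can be called by test. The two-sided exact permutation p was 0.1 for each (0.167 adjusted over 5 percentiles), the smallest that 3 arrays against 3 can give. In levels, 3120 transcripts averaged 5 to 8 in males and 3768 in females, and 3469 averaged 8 to 10 in males and 2799 in females. The part of this gap in the levels of the female-biased transcripts was not tested. With quantile normalization, which removes it, 4545 transcripts were female-biased and 62.9% of them lay in the lower 5 bins by mean level.

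Males varied more than females. The median SD over the 3 males was 0.38, against 0.24 over the 3 females, and the male SD was the larger for 72.5% of transcripts. Without male 1 the median male SD was 0.26, without male 3 it was 0.27, and without male 2 it was 0.48, so males 1 and 3 stood on opposite sides. Male 1 was closest to the females, with correlations of 0.733 to 0.763, and male 3 the farthest, at 0.612 to 0.639.

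The same order appeared in both classes. Male-biased transcripts had medians of 10.92, 11.38 and 11.50 in males 1 to 3, against 6.23, 6.03 and 6.07 in females 1 to 3. Female-biased transcripts had medians of 8.73, 8.16 and 7.93 in males 1 to 3, against 10.53, 10.53 and 10.59 in females. Male 1 thus lay nearest to the female level in each class, and the females hardly differed.

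**Figure D4:**
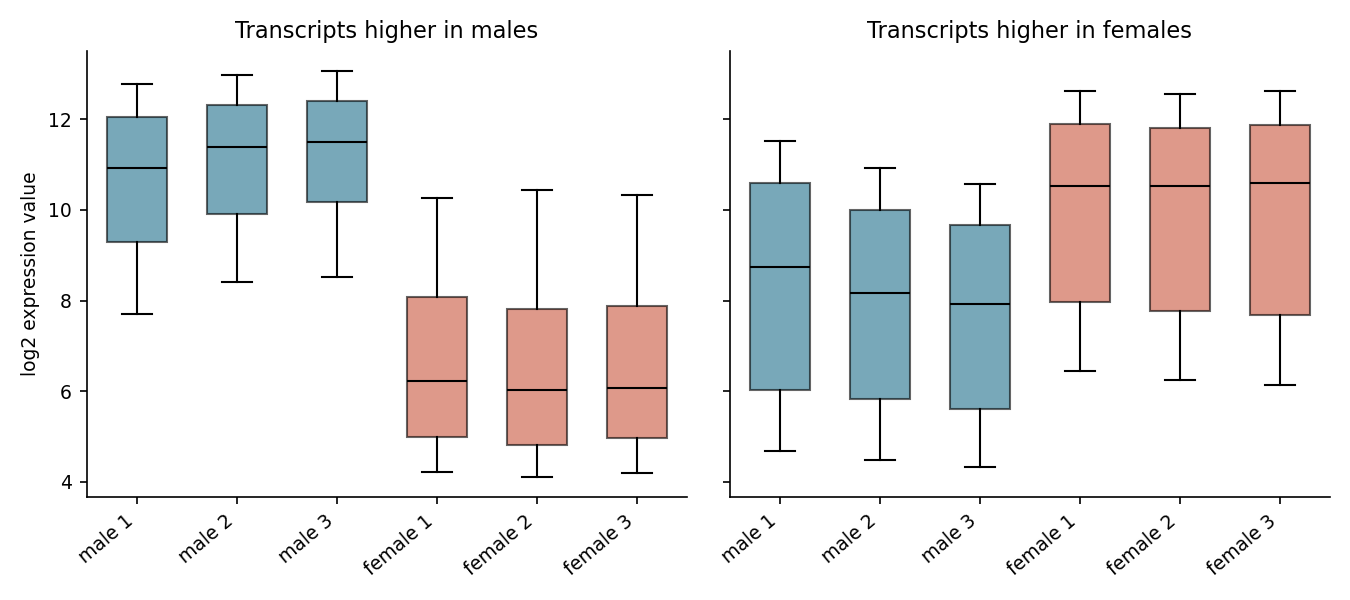
Log2 expression values of the male-biased (left) and female-biased (right) transcripts in each array, males left of females. Boxes span the quartiles with the median as a line, and whiskers the 10th to 90th percentiles; male 1 has the lowest male median on the left (10.92) and the highest on the right (8.73).

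The strength of the sex difference varied between populations accordingly, each seen on 1 array of each sex. A difference between populations and one between single samples or arrays cannot be told apart here. Between the male and the female of 1 population, 2395 transcripts differed by 1 or more towards males in population 1, 2802 in population 2 and 3472 in population 3, and 4421, 4697 and 5333 towards females. The interquartile range of the difference was 1.40, 1.63 and 2.01. Differences of at least 4 towards females numbered 44 in population 1, 264 in population 2 and 301 in population 3, whereas those towards males numbered 1159, 1384 and 1472. The differences correlated across transcripts at 0.901 to 0.948 between populations, which is a description, since transcripts are not independent.

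Of the 44 transcripts with a gene name, 1 was male-biased, 9 were female-biased and 34 were neither. The share past the thresholds, 22.7%, is below that of all transcripts (41.1%), and the median difference was -0.46 against -0.34 over all. The male-biased one was CG31178, at 9.50, 11.39 and 12.05 in males 1 to 3, against 4.30, 4.14 and 4.08 in females 1 to 3. Its difference was 6.81 (SE 0.62, limma adjusted p = 0.000257). Each female value was under its array's 5th percentile, and male 1 was the lowest male by far.

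The female-biased transcripts with a name are described singly, since they are too few to stand for a pathway. The transcript shared by Rad1, a clamp protein of the DNA damage checkpoint, and Sws1 stood at 10.10, 8.82 and 7.77 in males, against 12.03, 11.79 and 11.87 in females, and was 8.01-fold lower in males (SE 0.56 on the log2 scale, limma adjusted p = 0.0053). Males were spread over more than 2 log2 units and females were close together. The transcript shared by moi, which protects chromosome ends, and Tgs1, a cap methyltransferase, stood at 10.15, 9.87 and 9.47 in males, against 11.40, 11.37 and 11.44 in females (difference -1.58, SE 0.22, limma adjusted p = 0.00176).

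SuUR, which suppresses replication of late-replicating chromatin, overlapped between the sexes and was chosen for mention after its values were seen. It stood at 7.46, 8.13 and 9.47 in males, against 9.37, 10.99 and 11.02 in females (difference -2.11, SE 0.65, limma adjusted p = 0.0344). Male 3 lay above female 1, although each male was below the female of its own population. Its call was lost without male 1 (adjusted p = 0.063), male 2 (adjusted p = 0.1), female 2 (adjusted p = 0.109) or female 3 (adjusted p = 0.11).

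Wdr24 is a subunit of the complex that activates the growth regulator TORC1. It stood at 9.29, 8.55 and 8.42 in males, against 11.06, 11.14 and 11.01 in females, a difference of -2.32 (SE 0.27, limma adjusted p = 0.000723). mio, of the same complex, averaged 10.58 ± 0.28 over the 3 males and 11.26 ± 0.18 over the 3 females (SD). It passed the adjusted p but not the size (-0.68, adjusted p = 0.0374). After quantile normalization its limma adjusted p was 0.0602. With 1 array left out it was 0.0772 to 0.115, except without male 1 (0.0168).

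The transcript of Mocs2A and Mocs2B, which together form molybdopterin synthase, stood at 7.50, 7.26 and 7.74 in males, against 8.94, 9.76 and 9.28 in females (difference -1.82, SE 0.27, limma adjusted p = 0.00209). That of Polr3K, a subunit of RNA polymerase III, and Tcs1, of transfer RNA modification, stood at 11.82, 11.09 and 10.28 in males, against 12.85, 12.47 and 12.57 in females (difference -1.57, adjusted p = 0.0167). Neither overlapped between the sexes, but the call of Polr3K and Tcs1 was lost without male 2 (adjusted p = 0.0536), female 1 (adjusted p = 0.0587) or female 3 (adjusted p = 0.0515).

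The transcript of CG7950 and Rpp14a, named for a ribonuclease P subunit, averaged 11.22 ± 0.58 over the 3 males and 12.52 ± 0.12 over the 3 females (SD), with a difference of -1.30 (limma adjusted p = 0.0134). Without male 2 its adjusted p was 0.0502. That of CG42455 and vnc, the catalytic subunit of an N-terminal acetyltransferase, averaged 11.91 ± 0.36 in males and 12.94 ± 0.05 in females (difference -1.03, adjusted p = 0.0101). It fell short of the required size without male 3 (-0.86) and after quantile normalization (-0.98). fend averaged 10.38 ± 0.07 in males and 12.07 ± 0.28 in females (difference -1.68, adjusted p = 0.000977), and its sexes did not overlap.

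**Figure D5:**
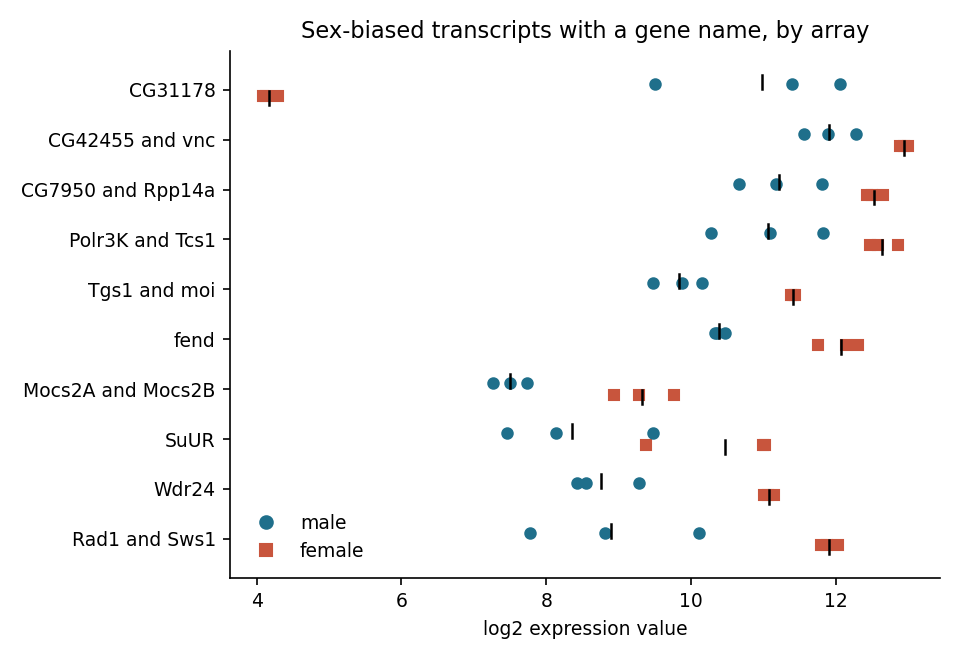
Log2 expression values (horizontal axis) of the 10 named sex-biased transcripts in each array, males (circles) drawn above females (squares), with a bar at each mean of 3. CG31178 is the only one with males to the right; SuUR is the only one in which the sexes overlap.

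The named transcripts that did not pass included some with close means in the 2 sexes. The smallest differences were those of the transcripts of CG33995, CG44000 and CG44001 (-0.01), of CG16974 (0.07), of CG10570 and CG42502 (0.09) and of CG12016 and Dpm2 (0.10), the last a part of dolichol-phosphate mannose synthesis. Their standard errors were 0.17 to 0.20. The most abundant named transcripts did not pass either. That of CG10570 and CG42502 averaged 13.93 in males and 13.84 in females, that of CG17325 and CG42305 averaged 13.64 in males and 14.11 in females. Uba1, the ubiquitin-activating enzyme, averaged 13.47 in males and 13.92 in females, and His4r, a histone, 13.52 in males and 13.83 in females. In these last 3 the male values lay wholly below the female values, as they did for 41.2% of all transcripts. Their adjusted p-values were 0.131, 0.0891 and 0.199 (limma).

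Further named transcripts, and mio, were picked once their values had been seen, because they lay near a threshold or crossed it under an alternative. As with mio, 4 other named transcripts passed the adjusted p with a difference below the size required, all lower in males. They were those of PIG-P and Tcs6 (-0.83), of CG31917 and Tfb5 (-0.89), of CG42374 and Mettl5 (-0.97) and HDAC3, a histone deacetylase (-0.95). Without male 1, HDAC3 reached -1.18, the transcript of CG42374 and Mettl5 -1.19, and that of CG31917 and Tfb5 reached the size as well, as it did without female 2 (-1.04). Other arrays left out went the other way. Without male 2 or any single female, the limma adjusted p was 0.0564 to 0.0733 for HDAC3 and 0.0575 to 0.073 for CG42374 and Mettl5. For CG31917 and Tfb5 it was 0.0591 without male 2, 0.0765 without female 1 and 0.0917 without female 3. rdx, an adaptor of a ubiquitin ligase, did not pass (-1.38, adjusted p = 0.182), but did with the population as a block (adjusted p = 0.0249). The transcript of CG42516 and Pbp49 did not pass (-1.26, adjusted p = 0.199), but did without male 3 (-2.10, adjusted p = 0.00769).

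The sex difference within monogamy was then set beside that within polygamy, measured on separate arrays. One polygamy array, female 3, had a mean correlation of 0.733 with the 5 other females, against 0.894 to 0.924 for those, and values are given with and without it. Of the 2469 transcripts male-biased in monogamy, 99.2% were higher in polygamy males on average (99.4% without that array), with a median difference of 4.33 in monogamy and 4.09 in polygamy (4.70 without it). Of the 4375 female-biased, 98.5% were lower in polygamy males (99.7% without it), with a median of -1.65 in monogamy and -1.57 in polygamy (-1.48 without it). The classes were chosen by their size and p in monogamy, which can enlarge the monogamy medians only, so these medians do not compare the regimes. Among transcripts in neither class, 73.6% had the same sign in polygamy (76.9% without polygamy female 3).

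A difference between the regimes in the sex difference was not shown for any transcript. The interaction of sex and regime was passed by 0 of 16637 transcripts (0% at an adjusted p under 0.05, limma, 12 arrays, smallest adjusted p 0.0622). At an unadjusted p under 0.05 were 593 of the 16637, fewer than that threshold passes on average where no transcript differs. The spread shared by the 12 arrays includes polygamy female 3, so this count does not show that the regimes were alike. The count past the adjusted p was also 0 without polygamy female 3 (smallest adjusted p 0.0501) and with the population as a block. So it was after quantile normalization of all 12 arrays and without any single monogamy array. Without polygamy females 2 and 3, a setting added after the data were seen, it was 2; the single polygamy female left was then assumed to vary like the other groups.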

How the data were processed

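The deposited table holds log2 expression values made by the authors with RMA, per the submitters' processing notes, 1 per transcript and array; no source used here gives the software version, the annotation or which arrays were normalized together. Each column was matched to a sample by accession. No filter or further normalization was applied. Male minus female was tested with limma 3.58.1 under R 4.3.3 (lmFit, eBayes) on the 6 monogamy arrays without a block, with Benjamini-Hochberg adjustment over all 16637 transcripts; the interaction used all 12 arrays in 4 groups. Arrays have no read depth, and their number limits the precision.

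The samples of a population share its subject label, which pairs male and female. Their deviations from the group means correlated at 0.53, -0.07 and 0.40 in populations 1 to 3. In populations 2 and 3 the male correlated more with the female of another population (0.09 and 0.44), so these values do not bear out the pairing there. P-values of the sex difference set it against the spread among arrays of the same sex. Each population was seen on 1 array a sex, so spread among populations and among samples or arrays cannot be told apart. The population as a block, other normalizations, floors, filters, priors, thresholds and left-out arrays were alternatives.

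Named transcripts are those with a symbol that passed and did not overlap, at most 15 a direction, plus the 4 smallest differences that did not pass, the 4 highest levels, and 2 identifiers without a name per direction. SuUR, and named transcripts near a threshold, were added after their values were seen. Members, lists and rules were chosen with earlier results of these data known. Neither the RNA-Seq of heads that the series also describes nor any nucleotide sequence was used here.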

Additional observations from a re-analysis of the deposited data

Results flagged for a closer look

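Of the 6844 transcripts sex-biased in monogamy, 6 had the opposite direction in all 3 polygamy populations. All 6 were higher in males under monogamy, but transcripts are not independent, so no pattern is read from this. The one with the largest difference between regimes was FBtr0112429, which has no gene name and was chosen for mention after its values were seen. Under monogamy it stood at 5.50, 5.30 and 5.32 in males and at 3.06, 3.16 and 4.19 in females (difference 1.90, limma adjusted p = 0.0041), and under polygamy at 5.67, 4.56 and 4.42 in males and at 8.63, 6.82 and 7.58 in females. The change of direction lay on the female side, and all 3 monogamy female values were below the 5th percentile of their arrays. The test of the difference between regimes did not pass, with an interaction of 4.70 (limma adjusted p = 0.299). For the other 5 the interactions were 1.56 to 2.62, with an adjusted p of 0.862. Groups of 3 arrays are too small to test an array by its distance from the others. Polygamy female 3 was therefore kept in the main interaction fit, with values without it given as an alternative.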

How the results depend on the processing

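The counts of male-biased, female-biased and all sex-biased transcripts kept within 1.5 times of 2469, 4375 and 6844 under every alternative tried except those named here. With limma's treat 3276 passed (1398 female-biased). Without both arrays of 1 population the total was 2793 to 7540, the male-biased count 1724 to 2829 and the female-biased count 1069 to 4711, the lowest each time without population 2. With the population as a replicate block 7232 passed, 2579 male-biased and 4653 female-biased; the block gave 0 interactions and changed no named call except that of rdx. Over single arrays left out, the total was 5866 to 7780, the female-biased count 3637 to 4848, males held 37.0% to 38.1% of all calls and 84.7% to 92.9% of those of size 4, against 36.1% and 89.0%, and the lower 5 bins by mean level held 71.0% to 78.2% of the male-biased and 56.4% to 60.9% of the female-biased transcripts, beside 57.4% with all arrays for the female-biased. After quantile normalization these were 71.4% and 62.9%. By the level in the higher sex 42.4% of the male-biased lay there, and by the lower sex, added after the data were seen, 83.4% and 62.7% did. The interaction count was 2 without polygamy females 2 and 3, also added later, with 1 polygamy female left. Of 396 comparisons of named transcripts with an alternative, 10 lost a call, 6 gained one and none was reversed. Fold sizes near the low end of the scale cannot be resolved on these arrays.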
